A study of Mus musculus with 126 samples.

Results

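The 10 genes described here encode parts of the NOTCH signalling pathway. They are the receptors Notch1, Notch2 and Notch3, the ligands Jag1, Jag2 and Dll1, the receptor-modifying enzyme Lfng, and the target genes Hes1, Hey1 and Nrarp. They were taken by symbol from an expression table of 48490 gene identifiers, and all 10 were found. The table comes from 126 single cells of mouse endolymphatic sac at E14.5 (embryonic days), of which 33 were labelled wild type and 93 were labelled Sox9 Y440X/+, heterozygous for an allele of the transcription factor gene Sox9 and called mutant below. The endolymphatic sac is a closed side pouch of the inner ear that takes part in keeping its fluid in balance, and the series title concerns control of this fluid by SOX9 and SOX10. Cells were dissociated and copied into cDNA by Smart-seq2, a plate-based method for full-length transcripts of one cell per well. No other allele or treatment is given for either group, and the labels name no strain, animal or litter.

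In NOTCH signalling, a ligand on one cell binds a receptor on a neighbouring cell. The receptor is then cut, first by an ADAM protease and then by gamma-secretase, and its inner domain enters the nucleus and acts with the DNA-binding protein RBPJ on targets such as Hes1, Hey1 and Nrarp. HES1 and HEY1 are transcriptional repressors, NRARP is a feedback inhibitor of the receptor's inner domain, and LFNG is a sugar transferase that changes which ligands a receptor answers to. In sheets of epithelium this contact between neighbours can set cells with more ligand apart from cells with more receptor. Foxi1, a forkhead transcription factor, marks the mitochondria-rich cells of the sac, which carry proton pumps and the anion exchanger SLC26A4 (pendrin).

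Because no animal is named, each genotype is 1 sample of many cells, and no test was made between any groups. Cell titles begin with P9 or P10, which the labels do not explain. P10 occurs in 32 of the 33 wild-type titles and in no mutant title, and P9 in the remaining 94, so the prefix and the genotype cannot be told apart. A Y-linked gene was listed in 32 of 33 wild-type cells and in 4 of 93 mutant cells, so the listing of these genes goes with the genotype as well. A median of 5329 genes was listed above 0 in wild-type and of 4423 in mutant cells, over a range of 2035 to 9358. The values are FPKM, fragments scaled by transcript length and by the mapped fragments of the cell, which carry no read number, so the depth is unknown. A gene is called detected in a cell at 1 FPKM or more, and a gene below that may be expressed without having been captured. Adding up all genes, the per-cell totals ranged from 60902 to 1.64e+07 FPKM, around a median of 462792. A fixed FPKM threshold is therefore not an equal detection limit across cells. Classes and shares use the values as listed, and the effect of these totals on them was not tested. Relative differences were also recomputed with each cell rescaled to 1000000.

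Cells were divided by Foxi1, by mesenchymal genes and by the retinal dehydrogenase genes Aldh1a1 and Aldh1a3. The 16 cells with Foxi1 at 10 FPKM or more are called Foxi1-high (5 wild-type, 11 mutant). The lowest of them stood at 28.2 FPKM and the highest cell outside at 0.989 FPKM, so no cell lay near the threshold. The 11 cells with at least 4 of 10 mesenchymal genes at 10 FPKM or more were set apart (2 wild-type, 9 mutant). The remaining 99 cells are called epithelial (26 wild-type, 73 mutant), and Epcam, an epithelial adhesion gene, was detected in 96 of them. Of these, 41 were Aldh1a1-dominant (9 wild-type, 32 mutant), 49 were Aldh1a3-dominant (14 wild-type, 35 mutant) and 9 were neither. Dominance required a lead of 1 log2 unit, and 2 of the 90 dominant cells lay within 1 log2 unit of that threshold. Epcam was detected in all 16 Foxi1-high cells and in 1 of 11 mesenchymal cells. Among the Foxi1-high cells, Slc26a4 was detected in 9 and the proton pump subunit gene Atp6v1b1 in 10, and both were below 1 FPKM in all 99 epithelial cells. Of the 10 mitochondria-rich markers, 8 were detected in at least 1 Foxi1-high cell, Foxi1 itself among them, and Slc4a1 and Rhcg were listed at 0 there. At least 3 of the markers were detected in 12 of the 16 cells (3 of 5 wild-type, 9 of 11 mutant). In the 5 wild-type cells Dmrt2 was listed at 0 as well. Of the mesenchymal markers, Dcn was detected in 10 of 16 Foxi1-high and 0 of 99 epithelial cells, whereas Col3a1 and Pdgfra were listed at 0 in the Foxi1-high cells.

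The upstream sequences of 3 members are shown because the results turn on 2 of them and because Lfng was listed at 0 everywhere. Each is given 5′ to 3′ on the gene's own strand and ends before the start of the gene, from the RefSeq promoter table of build GRCm38.p6, which held 8 of the 10 members and no entry for Hes1 and Hey1. Capitals mark matches to 1 of 3 short motifs on either strand, searched with their reverse complements: TGGGAA for the core that RBPJ reads, AACAAT for the core of SOX factors and TAAACA for the core of forkhead factors. No pair of these motifs overlaps in the windows shown. Among 32851 promoters of 250 bases, 21.6% held the RBPJ core, 9.42% the SOX core and 12.03% the forkhead core, so each is a common string of letters. The Nrarp window (chr2:25180508-25180757, plus strand) held 1 SOX core, 55 to 50 bases before the start. The Lfng window (chr5:140607091-140607319, plus strand) held 2 RBPJ cores on opposite strands. The Dll1 window (chr17:15376933-15377182, minus strand) held none of these letters. A match is a string of letters in this window and not a measured binding site.
Nrarp: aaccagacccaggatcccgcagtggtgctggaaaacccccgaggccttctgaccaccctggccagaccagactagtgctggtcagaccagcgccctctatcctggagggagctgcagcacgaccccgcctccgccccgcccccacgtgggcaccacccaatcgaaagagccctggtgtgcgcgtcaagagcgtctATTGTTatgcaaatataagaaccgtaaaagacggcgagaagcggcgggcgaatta
Lfng: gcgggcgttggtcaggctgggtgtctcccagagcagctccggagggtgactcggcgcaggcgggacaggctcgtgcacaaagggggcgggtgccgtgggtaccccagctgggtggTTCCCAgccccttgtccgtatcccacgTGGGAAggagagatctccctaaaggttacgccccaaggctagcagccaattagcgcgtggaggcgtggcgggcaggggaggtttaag
Dll1: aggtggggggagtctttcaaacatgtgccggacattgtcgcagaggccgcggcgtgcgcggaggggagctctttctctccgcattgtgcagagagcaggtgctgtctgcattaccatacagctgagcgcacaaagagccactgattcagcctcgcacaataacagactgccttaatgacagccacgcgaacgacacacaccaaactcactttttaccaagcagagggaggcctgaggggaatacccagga

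Notch1 was the most widely detected receptor. Notch1 (ENSMUSG00000026923.15, mm10 chromosome 2, 26457903 to 26516663, minus strand) was detected in 59 of 99 epithelial cells (59.6%, exact binomial 95% interval 49.3 to 69.3%). Its values there ran from 0 to 35.6 FPKM with a median of 3.15, averaging 1.75 ± 1.54 on the log2(FPKM + 1) scale (SD, 99 cells). Intervals cover counting error only, not the spread between animals. Notch2 (ENSMUSG00000027878.11, chromosome 3, 98013527 to 98150361) was detected in 11 of 99 epithelial cells, at 1.02 to 39.1 FPKM. Notch3 (ENSMUSG00000038146.7, chromosome 17, 32120820 to 32166880) was detected in 16 of 99, at 1.03 to 19.2 FPKM. The 3 receptor loci each overlap other annotated genes, and the strand setting of the counting is not given, so a part of their values may belong to those transcripts.

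Jag1 was the most widely detected ligand, and the other ligands were each restricted to few cells. Jag1 (ENSMUSG00000027276.7, chromosome 2, 137081456 to 137116644) was detected in 38 of 99 epithelial cells (38.4%, 28.8 to 48.7%), with a mean log2(FPKM + 1) of 1.27 ± 1.67 (SD) and a highest value of 48.5 FPKM. Jag2 (ENSMUSG00000002799.5, chromosome 12, 112908590 to 112929495) was detected in 8 of 99 epithelial cells, all labelled mutant, at 7.68 to 30.3 FPKM. In the 26 wild-type epithelial cells Jag2 was listed at 0. A count of 0 among so few leaves room for about 11.5%, near the 10.96% of mutant cells (8 of 73). A genotype difference in Jag2 was not tested, and these counts do not settle it. Dll1 (ENSMUSG00000014773.13, chromosome 17, 15367354 to 15376872) was detected in 2 of 99 epithelial cells. One was a wild-type Aldh1a3-dominant cell at 39.5 FPKM. The other was a mutant cell at 6.14 FPKM that also listed the endothelial genes Cdh5 and Pecam1 and no Epcam. A lincRNA on the opposite strand overlaps Dll1, and the miRNA gene Mir6941 lies within Jag2.

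Among the targets, Hes1 was either high or at 0 in most cells. Hes1 (ENSMUSG00000022528.7, chromosome 16, 30064384 to 30067796) was detected in 55 of 99 epithelial cells (55.6%, 45.2 to 65.5%), with a mean of 35.9 FPKM, the highest of the 10 genes in these cells. Of the 26 wild-type epithelial cells, 13 lay below 1 FPKM, 1 between 1 and 10 FPKM and 12 at 10 FPKM or more. Of the 73 mutant cells, 31 lay below 1 FPKM, 3 in between and 39 at 10 FPKM or more. Hey1 (ENSMUSG00000040289.8, chromosome 3, 8663359 to 8667256) was detected in 16 of 99 epithelial cells at 1.35 to 145.5 FPKM. Nrarp (ENSMUSG00000078202.3, chromosome 2, 25180758 to 25183339) was detected in 6 of 99, at 7.03 to 19.6 FPKM, and an antisense transcript overlaps its locus. Lfng (ENSMUSG00000029570.5, chromosome 5, 140607320 to 140615545) was listed at 0 throughout. A count of 0 in 126 leaves room for 2.38% of cells with 1 FPKM or more.

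**Figure D1:**
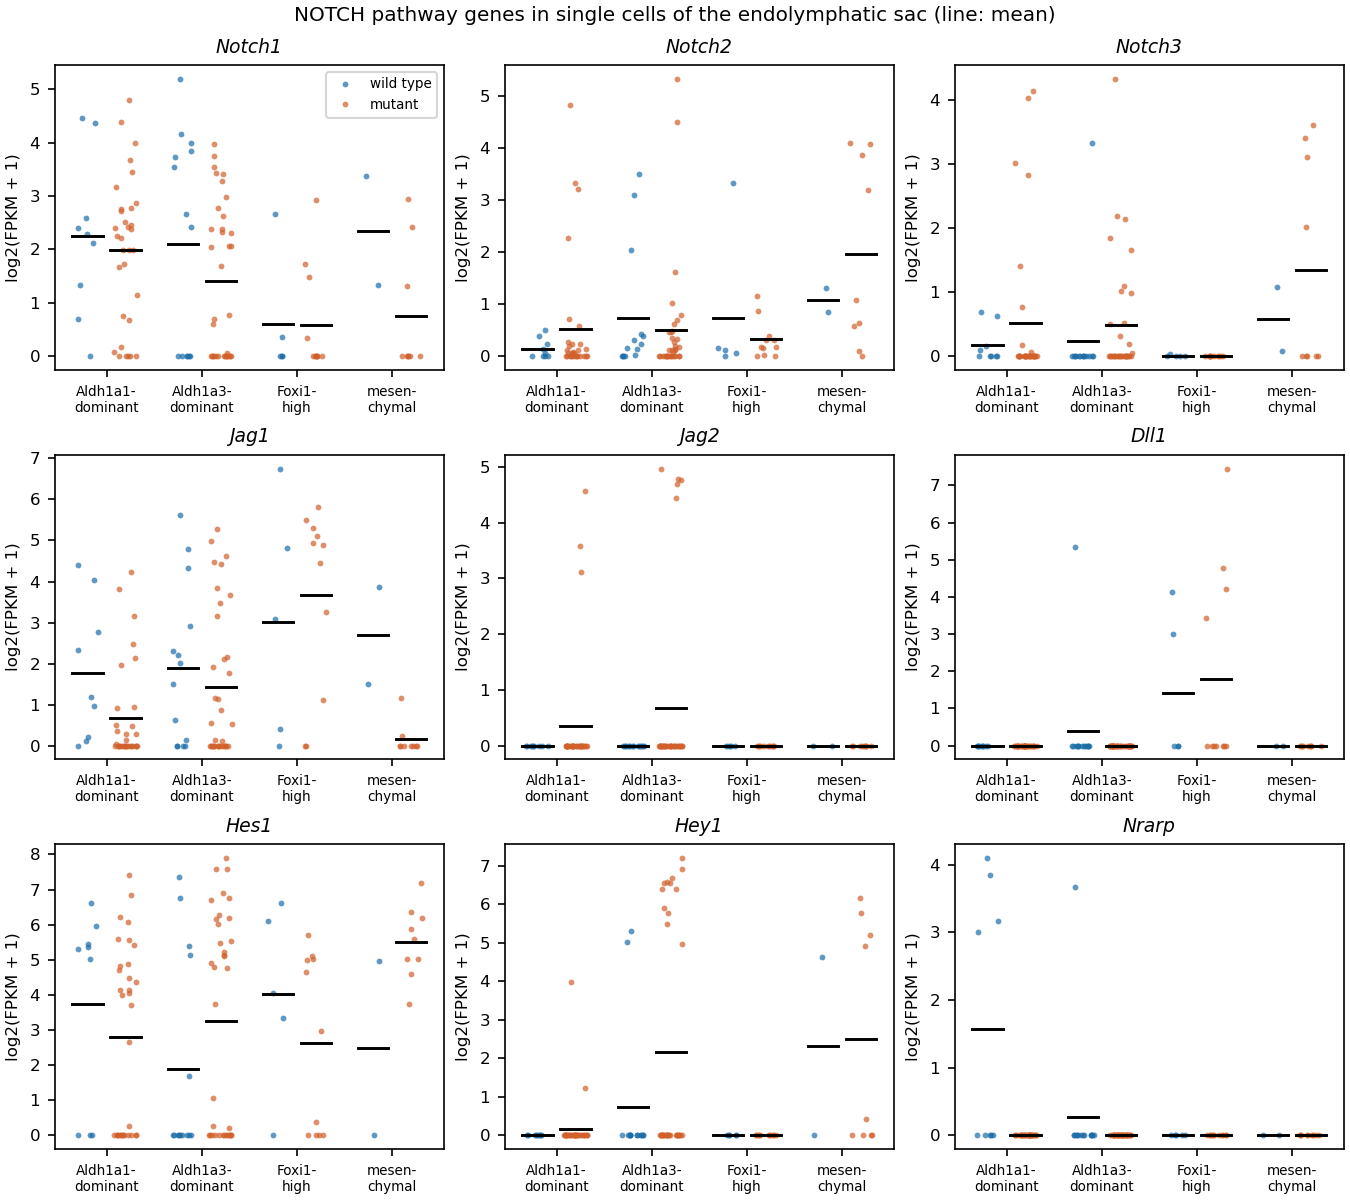
Expression of 9 members in single cells, as log2(FPKM + 1) on the y axis, by cell class on the x axis and by genotype in colour, with 1 point per cell and a line at the mean of each group. Hes1 and Hey1 form a high band and a band at 0, Dll1 points above 0 lie mostly in Foxi1-high cells, and Nrarp points above 0 in these 4 classes belong to 5 wild-type cells. Lfng, listed at 0 in every cell, is left out.

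The comparison of Foxi1-high with epithelial cells asked whether ligand and receptor transcripts lie in different cells. The Foxi1-high cells held Aldh1a1 at a median of 132.5 FPKM and Aldh1a3 at a median of 0. The epithelial cells mix 41 Aldh1a1-dominant and 49 Aldh1a3-dominant cells, and the part this plays in the comparison was not tested. Jag1 and Dll1 were higher and Notch1 lower in the Foxi1-high cells, while Hes1 was detected at similar shares in both classes with genotypes pooled. In the wild type Hes1 was detected in 80% of the 5 Foxi1-high and 50% of the 26 epithelial cells. In the mutant these shares of Hes1 were 54.5% and 57.5%. Jag1 was detected in 12 of 16 Foxi1-high cells (75%, 47.6 to 92.7%), at a mean of 25.2 FPKM against 4.54 FPKM in epithelial cells. In the 5 wild-type Foxi1-high cells Jag1 stood at 0, 0.334, 7.43, 27.4 and 106.8 FPKM. In the 11 mutant Foxi1-high cells it ran from 0 through a median of 28.7 to 55.2 FPKM. The 2 classes overlapped, since 4 Foxi1-high cells lay below 1 FPKM and the highest epithelial cell reached 48.5 FPKM.

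Differences in level are given as the difference of mean log2(FPKM + 1) less the median difference of all compared genes, called the relative difference. The compared genes are those whose share of detecting cells, averaged over the 2 groups, is at least 10%. A relative difference of 1 log2 unit or more in either direction is called, and a call is a size and not a test. Of 10025 genes compared between Foxi1-high and epithelial cells, 18.2% were called in either direction, and the median difference was 0.25. Of the 10 members, 5 could be compared and 3 were called, with Jag1 at 1.95, Dll1 at 1.35 and Notch1 at -1.41. Notch2 was at -0.27 and Hes1 at -0.19. Dll1 met the filter only through the Foxi1-high cells, so its call describes that class and was not open in the other direction. Notch3, Jag2, Lfng, Hey1 and Nrarp were too rarely detected to be compared.

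Dll1 was the member most concentrated in the Foxi1-high cells. It was detected in 6 of 16 (37.5%, 15.2 to 64.6%) against 2 of 99 epithelial cells (2.02%, 0.246 to 7.11%). The 2 wild-type cells stood at 7.05 and 16.5 FPKM, and the 4 mutant cells at 9.86, 17.4, 26.2 and 174.3 FPKM. The 2 mutant Foxi1-high cells that list a Y-linked gene are the cells at 26.2 and 174.3 FPKM. Without the mutant-labelled cells that list such a gene, the relative difference of Dll1 was 0.72 and no longer called.

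Notch1, in contrast, was detected in 4 of 16 Foxi1-high cells (25%, 7.27 to 52.4%), at 1.81 to 6.65 FPKM, and its mean was 1.04 FPKM against 4.81 FPKM in epithelial cells. The 5 wild-type Foxi1-high cells held Notch1 at 0, 0, 0, 0.288 and 5.31 FPKM. Notch2 was detected in 2 of 16 Foxi1-high cells (12.5%) and 11.1% of epithelial cells. Notch3, Hey1, Jag2 and Nrarp were below 1 FPKM in all 16 Foxi1-high cells, a count that leaves room for 18.8% each. Since 16.2% of epithelial cells detected Notch3 and the same share detected Hey1, their lack in 16 cells is within what so few cells allow. Hes1 was detected in 10 of 16 Foxi1-high cells (62.5%, 35.4 to 84.8%), at 6.77 to 96.4 FPKM.

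The direction of the 3 called members was the same within each genotype, and not every size was. These are the same cells as in the pooled comparison. In each genotype Dll1 again met the filter only through the Foxi1-high cells, so its direction was not open. For Notch1 the relative difference was -1.84 (wild type) and -1.31 (mutant), called in both. For Jag1 it was 0.85 and 2.33, and for Dll1 0.85 and 1.50, called in the mutant cells only, and the difference between genotypes was not tested. Hes1 was at 0.88 and -0.72 and Notch2 at -0.09 and -0.41, none of them called, and the other 5 members could not be compared in either genotype. Of all compared genes, 30.3% (wild type) and 22.7% (mutant) were called, so a call among only 5 wild-type Foxi1-high cells is common. Jag1 was detected in 3 of 5 wild-type Foxi1-high cells (60%) and 57.7% of wild-type epithelial cells, so in the wild type its higher level did not come with a higher share of cells. In mutant cells these shares were 81.8% and 31.5%. The Foxi1-high cells list more genes (median 5531) than the epithelial cells (4505), and among cells with 3000 to 5000 listed genes the relative difference of Jag1 was 0.60, of Dll1 2.68 and of Notch1 -1.20. Those values rest on 5 Foxi1-high cells, all mutant. The part that listed genes play in the Jag1 difference was not tested further.

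**Figure D2:**
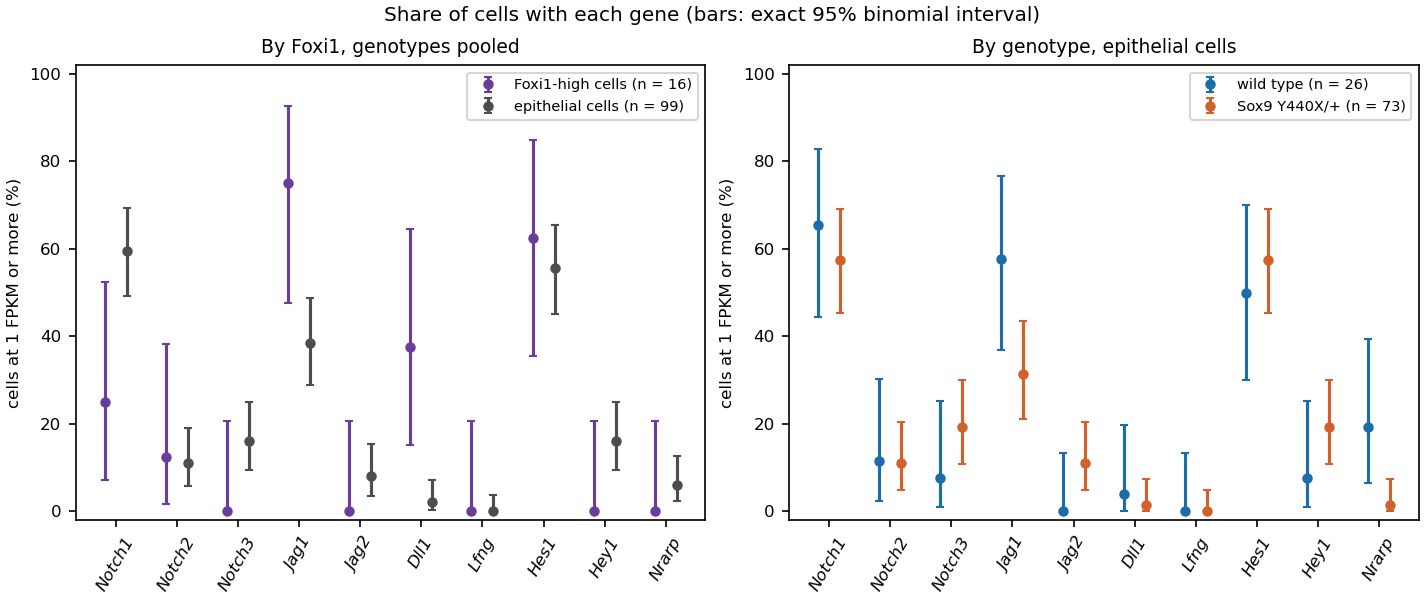
Share of cells with each member at 1 FPKM or more, with exact 95% binomial intervals as bars. The left panel compares 16 Foxi1-high with 99 epithelial cells, where the points of Jag1 and Dll1 lie higher and that of Notch1 lower in Foxi1-high cells, and the right panel compares 26 wild-type with 73 mutant epithelial cells, where Jag1 and Nrarp lie lower in the mutant.

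Within the Foxi1-high cells, Dll1 and Jag1 went with Slc26a4. This split was chosen after the values were seen and is a description. In the 9 cells with Slc26a4, Jag1 was detected in 9, at 1.16 to 55.2 FPKM, and Dll1 in 6. In the 7 cells without it, Jag1 was detected in 3 and Dll1 in 0. Hes1 was detected in 5 of 9 cells with and 5 of 7 cells without Slc26a4, and Notch1 in 2 of 9 and 2 of 7. The cells with Slc26a4 listed a median of 5899 genes and those without it 5520. The highest Jag1 value, 106.8 FPKM, nevertheless belonged to a wild-type cell without Slc26a4, which also held the highest Notch2 of this class (8.99 FPKM) and the highest Hes1 (96.4 FPKM).

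**Figure D3:**
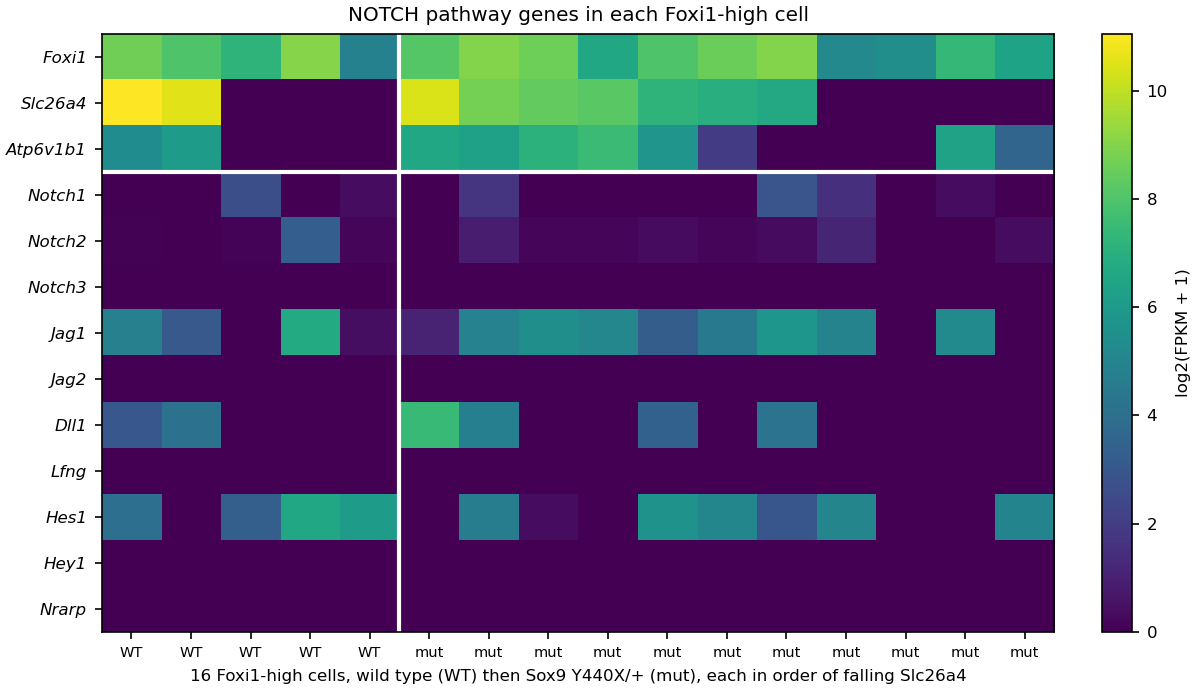
Each of the 16 Foxi1-high cells as a column, wild type at the left and mutant at the right of the vertical line and ordered by falling Slc26a4 within each, with log2(FPKM + 1) in colour. Dll1 is above 0 in 6 cells, all of which list Slc26a4, while Notch3, Jag2, Lfng, Hey1 and Nrarp are dark in nearly all or all columns.

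Counting ligands and receptors in the same cell, the Foxi1-high class had more cells with a ligand only and the epithelial class more with a receptor only. A ligand without a receptor was detected in 8 of 16 Foxi1-high cells (50%, 24.7 to 75.3%) and in 17 of 99 epithelial cells (17.2%, 10.3 to 26.1%). A receptor without a ligand was detected in 1 of 16 Foxi1-high cells (6.25%, 0.158 to 30.2%) and in 44 of 99 epithelial cells (44.4%, 34.5 to 54.8%). Both were detected in 4 of 16 (25%) and 28 of 99 (28.3%). Any receptor was detected in 31.3% of Foxi1-high and 72.7% of epithelial cells, and any ligand in 75% and 45.5%. The ligand contrast came from the mutant cells, with any ligand in 81.8% of Foxi1-high and 39.7% of epithelial cells, whereas in the wild type it was 60% (3 of 5) and 61.5% (16 of 26). Any receptor was detected in 40% and 69.2% in the wild type and in 27.3% and 73.97% in the mutant. The receptor contrast depends on the threshold. When any value above 0 counted as detected, a receptor was found in 87.5% of Foxi1-high and 88.9% of epithelial cells.

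Among epithelial cells, a receptor without a ligand was detected in 24 of 41 Aldh1a1-dominant cells (58.5%, 42.1 to 73.7%) and in 17 of 49 Aldh1a3-dominant cells (34.7%, 21.7 to 49.6%). A ligand was detected in 14 of 41 and in 26 of 49. In mutant Aldh1a1-dominant cells a ligand was detected in 9 of 32 (28.1%, 13.7 to 46.7%) and in wild-type cells of that class in 5 of 9 (55.6%, 21.2 to 86.3%), and these intervals overlap. Over all epithelial cells 29 of 73 mutant cells (39.7%, 28.5 to 51.9%) held a ligand, against 16 of 26 in the wild type (61.5%, 40.6 to 79.8%). A receptor was detected in 73.97% and 69.2%.

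**Figure D4:**
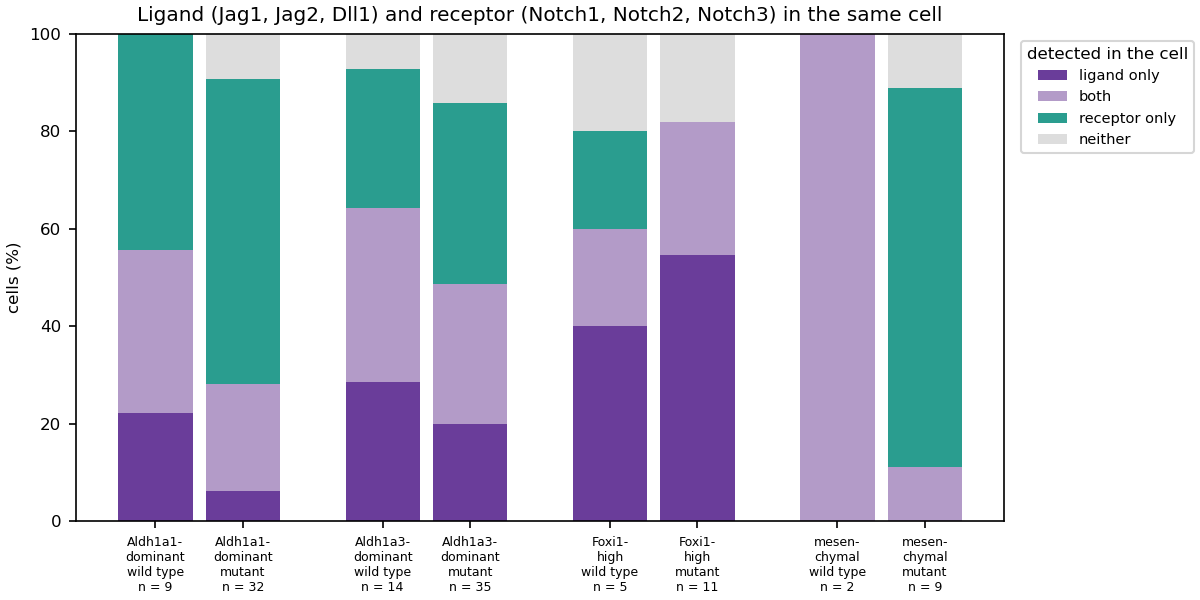
Percent of cells, on the y axis, with a ligand only, a receptor only, both or neither at 1 FPKM or more, for each cell class and genotype on the x axis with the number of cells below each bar. Ligand-only cells make up 40% of wild-type and 54.5% of mutant Foxi1-high cells, and receptor-only cells 62.5% of mutant Aldh1a1-dominant cells.

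Comparing Aldh1a1-dominant with Aldh1a3-dominant cells, the members called were Hes1, Nrarp and Hey1. Of all compared genes, 29.5% (wild type) and 14.8% (mutant) were called as well. In wild-type cells Hes1 and Nrarp were higher in the Aldh1a1-dominant class, and in mutant cells Hey1 was lower there. In the wild type, Hes1 was detected in 6 of 9 Aldh1a1-dominant cells, at 31.4 to 96.5 FPKM, and in 5 of 14 Aldh1a3-dominant cells, at 2.21 to 163.7 FPKM, a relative difference of 1.82. Nrarp was detected in 4 of 9, at 7.03, 7.96, 13.4 and 16.1 FPKM, and in 1 of 14, at 11.7 FPKM, a relative difference of 1.26. Both classes held cells at 0 for both genes, so their values overlapped. Of 9981 compared genes 29.5% were called in this comparison, and 2 of the 5 members compared. Nrarp met the filter only through the Aldh1a1-dominant cells, so its call was not open in the other direction. The others compared were Notch1 at 0.09, Notch2 at -0.64 and Jag1 at -0.16, while Notch3, Jag2, Dll1, Lfng and Hey1 were too rarely detected. Nrarp was no longer called among cells with 3000 to 5000 listed genes (0.79), without cells above 6000 listed genes (0.996), with dominance by 3 log2 units (0.63) or with a pseudocount of 10 (0.39). Hes1 was no longer called on the log2 of mean FPKM (0.57) or with a pseudocount of 10 (0.81).

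In mutant cells Hey1 was detected in 2 of 32 Aldh1a1-dominant cells (6.25%, 0.766 to 20.8%), at 1.35 and 14.9 FPKM. It was detected in 12 of 35 Aldh1a3-dominant cells (34.3%, 19.1 to 52.2%), at 30.3 to 145.5 FPKM. The relative difference was -2.05, and 14.8% of 9608 genes were called, with Hey1 alone among the 7 members compared. Hey1 met the filter there only through the Aldh1a3-dominant cells, so its call was not open in the other direction. Both wild-type cells with Hey1, at 31.6 and 38.2 FPKM, were Aldh1a3-dominant too, so 14 of the 16 epithelial cells with Hey1 were of that class. Jag1 was at -0.82 in mutant cells, detected in 6 of 32 Aldh1a1-dominant and 15 of 35 Aldh1a3-dominant cells. Also in mutant cells Hes1 was at -0.53, Notch1 at 0.52, Jag2 at -0.38, Notch2 at -0.05 and Notch3 at -0.03, and Dll1, Lfng and Nrarp were listed below 1 FPKM in both classes. Notch1 was detected in 30 of 41 Aldh1a1-dominant cells (73.2%, 57.1 to 85.8%) and 25 of 49 Aldh1a3-dominant cells (51.02%, 36.3 to 65.6%) of both genotypes, and was not called in either genotype. Aldh1a1-dominant cells list a median of 4856 genes and Aldh1a3-dominant cells 4423.

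Between the genotypes, no member was called in epithelial cells as a whole. Of 9752 compared genes 10.1% were called, and of the 7 members compared 0 were, with relative differences from -0.51 for Jag1 to 0.91 for Hey1. Jag2, Dll1 and Lfng were too rarely detected to be compared. Jag1 reached 1 FPKM in 15 of 26 wild-type cells (57.7%, 36.9 to 76.6%). The mutant count was 23 of 73 (31.5%, 21.1 to 43.4%), at a mean log2(FPKM + 1) of 1.08 ± 1.61 (SD) against 1.80 ± 1.74. Notch1 was detected in 65.4% and 57.5%, Notch2 in 11.5% and 10.96%, Notch3 in 7.69% and 19.2%, Hes1 in 50% and 57.5%, and Hey1 in 7.69% and 19.2%, the wild type first. The intervals of each of these genes overlap between genotypes. Among epithelial cells the median of listed genes was 4340 in the mutant and 5009 in the wild type. The part that listed genes play in these shares was not tested.

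Nrarp was detected mostly in wild-type cells. Among epithelial cells, 5 of 26 wild-type (19.2%, 6.55 to 39.4%) but 1 of 73 mutant cells (1.37%, 0.0347 to 7.40%) reached 1 FPKM. That mutant cell stood at 19.6 FPKM and listed Cdh5 at 31.7 and Pecam1 at 309.7 FPKM with no Epcam. Without the 2 mutant cells that list Cdh5, which was decided after seeing the data, Nrarp was listed at 0 in every mutant epithelial cell. Over the epithelial cells together its relative difference was -0.42, and in Aldh1a1-dominant cells -1.35, with 4 of 9 cells of the wild type and 0 of 32 of the mutant detecting it. Nrarp met the filter there only through the wild-type cells, and 22.9% of the compared genes were called in that comparison. Nrarp fell just short of a call among cells with 3000 to 5000 listed genes (-0.98) and was at -0.79 with dominance by 3 log2 units and -0.41 with a pseudocount of 10. In 4 of the 5 wild-type cells with Nrarp a Y-linked gene was also listed, and all of them carry the title prefix P10, which no mutant cell does.

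In Aldh1a3-dominant cells the mutant values of Hes1 and Hey1 were higher. Hes1 reached 1 FPKM in 20 of 35 mutant cells (57.1%, 39.4 to 73.7%) against 5 of 14 wild-type cells (35.7%, 12.8 to 64.9%), a relative difference of 1.60. For Hey1 the shares were 12 of 35 (34.3%, 19.1 to 52.2%) against 2 of 14 (14.3%, 1.78 to 42.8%), and the relative difference was 1.63. Both pairs of intervals overlap, and 17.7% of the compared genes were called. On the log2 of mean FPKM Hes1 was at 0.84, below a call, and Hey1 at 2.36. With a pseudocount of 10 neither was called (0.73 and 0.83). Of the others compared in Aldh1a3-dominant cells, Notch1 was at -0.49, Notch2 at -0.0069, Notch3 at 0.46 and Jag1 at -0.23, and Jag2, Dll1, Lfng and Nrarp were too rarely detected. In Aldh1a1-dominant cells Hes1 was at -0.74, Jag1 at -0.88 and Notch1 at -0.05, none of them called. There Notch2, Notch3, Jag2, Dll1, Lfng and Hey1 were too rarely detected to be compared.

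**Figure D5:**
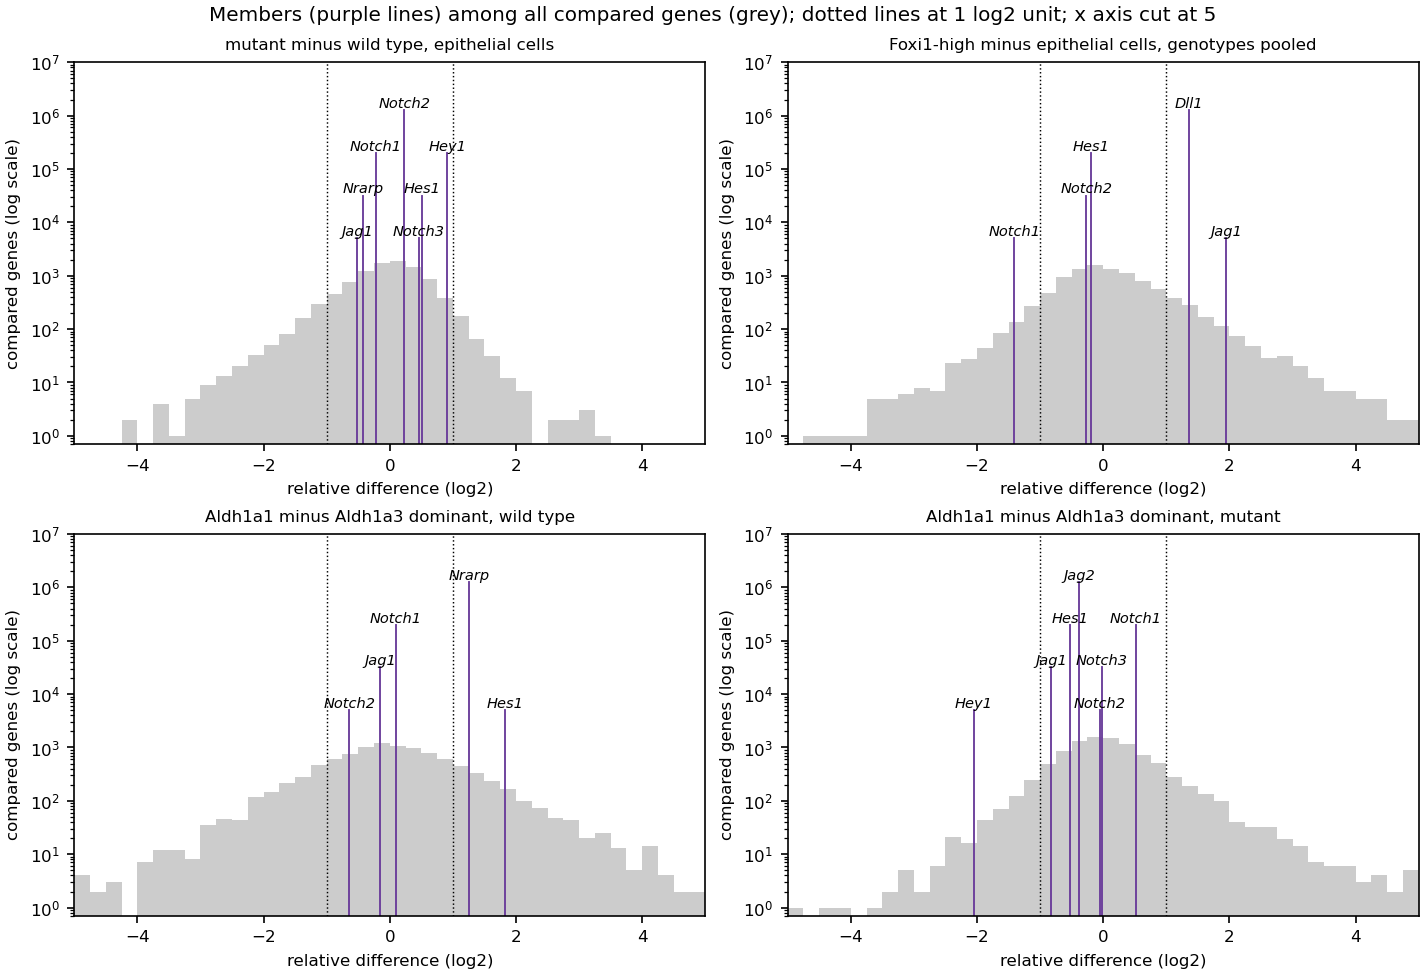
Relative difference, in log2 units on the x axis, of the compared members (purple lines with names, whose height has no meaning) among all compared genes (grey bars, number of genes on a log y axis) in 4 comparisons. Dotted lines mark 1 log2 unit in either direction, and Jag1 at 1.95, Dll1 at 1.35 and Notch1 at -1.41 lie beyond them in the comparison of Foxi1-high with epithelial cells.

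At 1 FPKM, Hes1 was detected at the same share in epithelial cells with and without a receptor. It was found in 40 of 72 cells with a receptor (55.6%, 43.4 to 67.3%) and in 15 of 27 without one (55.6%, 35.3 to 74.5%). With any value above 0 counted as detected these shares were 60.2% (53 of 88) and 45.5% (5 of 11), and among cells with 3000 to 5000 listed genes 47.7% (21 of 44) and 55.6% (10 of 18). At 1 FPKM Hes1 was likewise found in 25 of 45 cells with a ligand and 30 of 54 without. Hey1 was detected in 9 of 72 cells with a receptor (12.5%, 5.88 to 22.4%) and 7 of 27 without (25.9%, 11.1 to 46.3%). The cells with a receptor list a median of 4726 genes and those without one 4071, and the part this plays was not tested. The 16 cells with Hey1 also had Hes1 in 12 cases (75%, 47.6 to 92.7%), against 43 of 83 cells without Hey1 (51.8%, 40.6 to 62.9%). Nrarp and Hes1 were found together in 3 of the 6 cells with Nrarp. Genes of one cell share its capture and depth.

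A further list of 44 NOTCH pathway genes, all in the table, gave the setting of these values. Between Foxi1-high and epithelial cells 28 of the 44 could be compared, 4 were higher and 2 lower by 1 log2 unit or more, beside 18.2% of all compared genes, and their median relative difference was -0.12. Psen2 (2.12), which encodes a catalytic subunit of gamma-secretase, and the receptor protease gene Adam17 (1.31) were higher in Foxi1-high cells. Neurl1a, which encodes a ubiquitin ligase of the Neuralized family that acts on NOTCH ligands in flies, was at 1.23 and detected in 7 of 16 Foxi1-high and 3 of 99 epithelial cells, so it met the filter only through the former. Numb (-1.09), which encodes an inhibitor of NOTCH, and Dtx3 (-1.25), of the Deltex family, were lower. Rbpj was detected in 5 of 16 Foxi1-high and 27 of 99 epithelial cells. The target gene Hes5 and the ligand gene Dll3 were listed at 0 in all cells of both classes.

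Between the genotypes 27 of the 44 genes could be compared, and 1 was called in each direction, beside 10.1% of all compared genes. Adam10, which encodes the main protease of the first receptor cut, was at 1.24, detected in 45 of 73 mutant and 11 of 26 wild-type cells. Psenen, a gamma-secretase subunit gene, was at -1.44, detected in 53 of 73 and 22 of 26. Psenen was also higher in Aldh1a1-dominant than in Aldh1a3-dominant cells, by 1.88 in the wild type and 1.50 in the mutant. Of 26 genes of the list compared there, 6 were higher and 5 lower in the wild type, and 2 were higher and 2 lower in the mutant, beside 29.5% and 14.8% of all compared genes. In the wild type the list also had the repressor gene Hes6 at 1.45, the ID-family gene Id4 at 1.38, the receptor glucosyltransferase gene Poglut1 at 1.29 and the Deltex-family gene Dtx2 at -1.17, which met the filter only through the Aldh1a3-dominant cells. In the mutant, Numb was at -1.69 and Dtx3 at -1.47.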

How the data were processed

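The authors deposited a single FPKM table of genes by cells. Cufflinks, HTSeq, HISAT2 and SAMtools 0.1.18 are named in the submitters' processing notes, with build mm10 and no order. Strand setting and annotation release: not given in the sources used here. In all, 48555 rows were summed to 48490 gene identifiers, of which 48131 were found in GENCODE vM21, 88.3% of them at the same locus once 1 was added to the table's start. Coordinates are printed 1-based. Sequences come from RefSeq (GRCm38.p6).

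FPKM carries no read number, so listed genes stood in for depth. Doublets were not called for want of counts, and cells above 6000 listed genes were left out as an alternative. A level is a mean ± SD over cells of log2(FPKM + 1), and adding 1 shrinks the differences of scarce genes. Shares have exact (Clopper-Pearson) 95% intervals, and a count of 0 allows 3 counts of the total. With 1 sample per genotype and no animals named, no p-value is given. Python 3.11.15, numpy 2.4.6, pandas 2.3.3, scipy 1.17.1 and matplotlib 3.10.9 were used, and the relative difference was tested on simulated data.

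All 10 members are covered in every comparison, by value or as not compared. Of the 44 further pathway genes, in the comparisons where the list is described, those past 1 log2 unit are named, at most 6 per comparison by size, apart from Rbpj, Hes5 and Dll3, which were added after their values were seen, and 1 gene that is not reported here. Members, lists and classes were chosen with earlier results of these data known. Alternatives changed the detection threshold, pseudocount, filter, scaling, class thresholds and the cells kept.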

Additional observations from a re-analysis of the deposited data

Results flagged for a closer look

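Hes1 moved in opposite directions in 2 pairs of comparisons, and these differences were not tested. The negative value of each pair was below the size of a call. The relative difference of Hes1 between Aldh1a1-dominant and Aldh1a3-dominant cells was 1.82 in the wild type and -0.53 in the mutant. Between mutant and wild type it was -0.74 in Aldh1a1-dominant and 1.60 in Aldh1a3-dominant cells. Both pairs rest on the same 4 groups of cells and are not separate observations. The lowest share of cells with Hes1 among these groups was that of the 14 wild-type Aldh1a3-dominant cells, at 35.7%.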

How the results depend on the processing

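Each value was recomputed under the alternatives, and in none did a called value change sign. Of 104 values of main comparisons under an alternative, 76 stayed within their limits and 28 moved, and of 1550 others 1485 stayed and 65 moved. A relative difference stayed if it shifted by at most 1 SD over cells, or if that SD was 0, as for Lfng. For Hes1 the SD over epithelial cells was 2.91, wider than the size of a call. Some of the values that stayed could not move, because the alternative kept the same cells. The counts of values that stayed therefore say little about stability. A share stayed if it fell inside its exact interval, and a count of calls if it changed by no more than a set factor. A value that stayed can have lost its call, as Hes1 did between wild-type dominance classes on the log2 of mean FPKM (1.82 to 0.57). With a pseudocount of 0.1 the genes called were 2473 between genotypes, 3783 for Foxi1-high against epithelial cells, 5106 for Aldh1a1 against Aldh1a3 dominance in the wild type and 3200 in the mutant, with 2 members called between genotypes and 3 for dominance in the mutant. With a pseudocount of 10 the genes called were 196, 445, 665 and 297, with 0 members called for Foxi1-high cells and 0 for dominance in the wild type. Among cells with 3000 to 5000 listed genes they were 1719 of 9363 between genotypes and 3209 of 9246 for Foxi1-high cells. For dominance in the wild type they were 4937 of 8996, with 1 member called. For dominance in the mutant they were 1892 of 9094, with 2 members called. No wild-type Foxi1-high cell lay in that range, so the comparison there rests on 5 mutant cells. On the log2 of mean FPKM 2 members were called between genotypes, beside 962 genes higher and 802 lower of 9752. For dominance in the mutant 2 were called, beside 1173 higher and 1225 lower of 9608. After rescaling each cell to 1000000, 2 were also called there, beside 2003 of 9938 genes. Without cells above 6000 listed genes 1 member was called between genotypes, beside 334 genes higher and 701 lower of 9521. For dominance in the wild type 1 was called, beside 1578 higher and 1588 lower of 10197. There dominance by 3 log2 units also left 1 member, beside 1608 higher and 1737 lower of 9853. Detection above 0 FPKM gave a ligand in 61.6% and a receptor in 88.9% of epithelial cells and a receptor in 87.5% of Foxi1-high cells, and detection at 5 FPKM gave 27.3% and 41.4% of epithelial cells. A Foxi1 threshold of 1 FPKM took the same cells. At a pseudocount of 10 the Foxi1-high relative differences were 0.97 for Jag1, 0.58 for Dll1 and -0.40 for Notch1. The cause of these changes was not tested. The choice to leave out the 2 cells that list Cdh5 came after seeing the data. The unknown depth limits every share, since a gene at 0 may not have been captured. No paired analysis was possible because the values come from no test, and replicate numbers were given in accession order and only name cells.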

Other observations

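The counts of the 11 cells with mesenchymal genes are given as a description, and no comparison with the other classes was made. Hes1 was detected in 10 of 11, at 12.2 to 143.5 FPKM in the 9 mutant cells, all of which detected it. Notch2 was detected in 6 of 11, Notch1, Notch3 and Hey1 in 5 each, and Jag1 in 3, while Dll1, Jag2 and Nrarp were listed at 0. The 2 wild-type cells of this class both held Jag1, at 1.82 and 13.7 FPKM, and 1 of 9 mutant cells did, at 1.22 FPKM. The cell with Jag1 at 1.82 FPKM also detected all 8 genes of an epithelial marker list, with Epcam at 92.6 FPKM. It listed 6493 genes and Hes1 at 0. Without the mesenchymal rule both wild-type cells would count as Aldh1a3-dominant, and no mutant cell of this class would. Whether these 2 cells are mixed was not tested. Notch2 reached 16.01 FPKM and Hey1 70.99 FPKM in this class.

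Of the 2 mutant cells that list Cdh5, one held Notch1 at 15.02, Jag1 at 2.52, Nrarp at 19.6 and Hes1 at 265.8 FPKM, the highest Hes1 value of the 126 cells. The other listed 2477 genes and held Dll1 at 6.14 and Hes1 at 1.31 FPKM.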
